A study of Mus musculus with 12 samples.

Results

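The growth hormone and IGF-binding protein axis was examined in mouse liver through 10 genes, each taken by its symbol from the 20719 named genes of the array table: Ghr, Socs2, Igf1, Igfals, Igfbp1, Igfbp2, Igfbp3, Igfbp4, Igfbp5 and Igfbp7. A symbol with several lines was represented by the line of highest average level, and among the 10 genes this concerned only Socs2. The study hybridised liver RNA of 12 mice to 12 arrays, 3 mice in each of 4 groups defined by genotype and feeding. Wild-type (WT) and knock-out (KO) mice were each studied on chow or after 24 h without food, during which water remained available. The KO mice came from a cross between C57BL/6 animals that carry an Albumin-Cre transgene, which is active in hepatocytes, and animals in which loxP sites flank the alternative Lamp2 exon that is specific to Lamp2A. Lamp2A is the lysosomal receptor of chaperone-mediated autophagy, so the deletion is directed to hepatocytes and not to the other cells of the liver. The age and sex of the mice, and whether the WT mice carried the transgene or the loxP sites, are not given in the sources used here.

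As background, growth hormone from the pituitary binds its receptor on hepatocytes and signals through JAK2 and STAT5 to raise Igf1, Igfals and the feedback inhibitor Socs2. Most circulating IGF-I comes from the liver and travels in a complex with IGFBP-3 and the acid-labile subunit, while smaller complexes with the other binding proteins limit or direct its access to the receptor. Fasting is known to lower hepatic growth hormone sensitivity, and Igfbp1 is known as a gene that insulin represses through FOXO transcription factors.

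The promoter of Igfbp1 is shown with those of Igfbp2 and Ghr because these are the genes of the axis whose levels differed with starvation in the test across all genes. The sequences are from RefSeq on mouse build GRCm38.p6, each from 250 bases before to 50 bases after an annotated transcription start, written 5′ to 3′ on the strand of the gene. They lie at chr11:7197537-7197836 on the plus strand for Igfbp1, at chr1:72824230-72824529 on the plus strand for Igfbp2, and at chr15:3583303-3583602 on the minus strand for Ghr. Capitals mark the motif CAAAACA, the core of the insulin response element described in the human and rat genes.
Igfbp1: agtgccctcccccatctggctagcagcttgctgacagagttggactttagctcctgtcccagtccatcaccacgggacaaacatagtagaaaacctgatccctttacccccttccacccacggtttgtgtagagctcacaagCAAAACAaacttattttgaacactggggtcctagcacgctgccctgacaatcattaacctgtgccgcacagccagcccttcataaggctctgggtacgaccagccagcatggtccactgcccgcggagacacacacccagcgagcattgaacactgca
Igfbp2: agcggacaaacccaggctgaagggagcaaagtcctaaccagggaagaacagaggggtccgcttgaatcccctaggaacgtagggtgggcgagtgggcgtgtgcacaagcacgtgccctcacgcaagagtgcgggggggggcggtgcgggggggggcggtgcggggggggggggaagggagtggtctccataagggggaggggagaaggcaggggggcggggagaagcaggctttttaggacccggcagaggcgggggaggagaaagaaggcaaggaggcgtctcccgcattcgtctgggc
Ghr: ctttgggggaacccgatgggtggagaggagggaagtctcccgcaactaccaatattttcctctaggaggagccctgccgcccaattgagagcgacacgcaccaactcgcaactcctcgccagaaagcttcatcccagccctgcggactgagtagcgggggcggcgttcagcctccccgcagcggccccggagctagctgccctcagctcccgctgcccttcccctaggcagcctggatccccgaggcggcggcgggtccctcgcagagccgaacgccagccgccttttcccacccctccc
The motif CAAAACA begins at position -108 from the Igfbp1 start. Searched on both strands, it was present in 6.28% of 32851 RefSeq promoters of the same length. The forkhead box O site, spelled GTAAACA and also searched on both strands, was present in 3.65% of promoters. The STAT site, whose letters TTCNNNGAA read the same on both strands, was present in 8.30% of promoters, and the 3 motifs do not overlap in any of the promoters of the axis. Neither GTAAACA nor TTCNNNGAA was found in these windows of Igfbp1, Igfbp2 and Ghr. Spellings other than the 3 motifs were not searched, so this does not show that such sites are absent. The table held 13 promoters for 9 of the 10 genes, all but Socs2. Besides the Igfbp1 motif, the matches were a STAT site at position -236 from 1 Igfals start, and a STAT site at -58 and a forkhead box O site at -242 from another, with no match at the third. A match describes letters in a window and is no evidence of binding. In the RefSeq gene table, Igfbp1 and Igfbp3 are next to each other on chromosome 11 in opposite orientation, and so are Igfbp2 and Igfbp5 on chromosome 1.

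Values are robust multi-array average (RMA) log2 expression values as deposited, so a difference of 1 is a doubling of the array signal, and differences are taken between mice for the same gene. Where a level is set beside those of other lines, it says only how bright a probe set is. The arrays differed in the spread of their values over genes. The SD over all genes was at most 2.08 on 6 arrays, called narrow here, and 2.13 to 2.15 on the other 6, called wide, and 2 of the 6 fed but 4 of the 6 starved mice were on wide arrays. Starvation differences are therefore also given with the array spread as a block, and within wide or narrow arrays, mostly as averages over genotypes. Wide arrays hold 1 fed and 2 starved mice of each genotype, and narrow arrays 2 fed and 1 starved, so each such fit assumes that the lone mouse varies like the others, and values within 1 genotype are given without a test. The 10 hepatocyte markers had mean levels between 13.16 and 13.64 on every array, and the lowest of them by its mean over the 12 arrays was Hnf4a at 11.95. The line for Lamp2 ranged from 12.24 to 12.81 and did not differ between KO and WT mice in the limma test (fed difference 0.24, SE 0.14, adjusted p = 1; starved difference -0.07, SE 0.14, adjusted p = 1). Its probes are not known to lie in the deleted exon, so it does not check the genotype. In whole liver, fewer cells of a type and less RNA per cell cannot be told apart.

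In starved livers Igfbp1 and Igfbp2, which encode binding proteins of small IGF complexes, rose in both genotypes, Igfbp1 by 8.79-fold in WT and 8.86-fold in KO mice and Igfbp2 by 2.26-fold and 3.11-fold. Ghr, the receptor, fell 1.50-fold when the 2 genotypes were averaged. Igf1 itself differed by 0.05 on the log2 scale. Calls are differences with an adjusted p under 0.05 in limma's moderated test with Benjamini-Hochberg adjustment over all 20719 genes. Those of Igfbp1, Igfbp2 and Ghr were the only ones, and Igf1 was not called. The calls made up 2 of the 10 genes in WT mice, where 1.41% of all genes were called, 2 of 10 in KO mice, where 1.02% were called, and 3 of 10 in the average of both genotypes, where 5.16% were called. The median difference of the 10 genes was 0.14 in WT and 0.20 in KO mice, beside medians over all genes of -0.01 and -0.03. None of the 10 was called between genotypes or in the interaction of genotype and starvation.

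**Figure D1:**
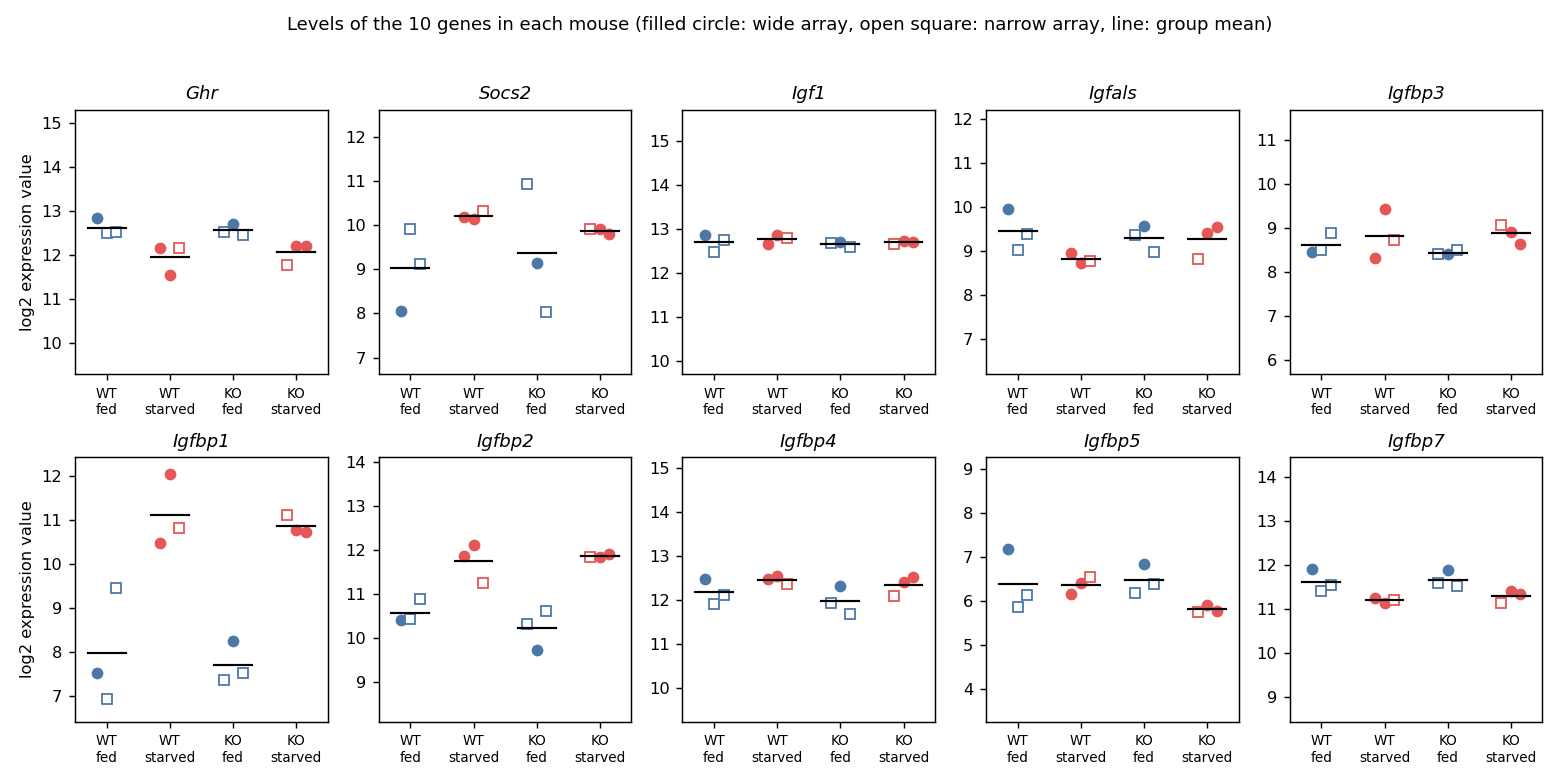
Levels of the 10 genes in each mouse, as log2 expression values on the vertical axis and the 4 groups on the horizontal axis, with panels of equal height in log2 units. Filled circles are mice on wide arrays, open squares mice on narrow arrays, and the line is the mean of 3 mice; Igfbp1 and Igfbp2 sit higher in every starved mouse than in any fed mouse, and Socs2 is spread out in the fed groups.

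Ghr encodes the growth hormone receptor, which liver expresses strongly. In WT mice its level was 12.82, 12.50 and 12.52 in the fed and 12.16, 11.54 and 12.16 in the starved animals. In KO mice it was 12.52, 12.69 and 12.45 in the fed and 11.75, 12.20 and 12.20 in the starved animals. All 6 starved mice lay below all 6 fed mice. The difference was -0.66 (SE 0.19, adjusted p = 0.126) in WT and -0.50 (SE 0.19, adjusted p = 0.363) in KO mice, neither of which passed the test alone. Averaged over genotypes, Ghr fell by 0.58 (SE 0.13, 95% confidence interval -0.87 to -0.29, adjusted p = 0.0262). With the array spread as a block it was -0.63 (adjusted p = 0.0056) and the WT difference -0.72 (adjusted p = 0.029), but in the average within wide arrays alone (-0.73, adjusted p = 0.0692) and narrow arrays alone (-0.54, adjusted p = 0.0574) the call was lost. The WT value was -0.97 within wide and -0.35 within narrow arrays. The averaged call was also lost without WT fed mouse F4 (adjusted p = 0.0534), without KO fed mouse F5 (0.0653) and without KO starved mouse S5 (0.0576).

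Socs2 encodes a suppressor of cytokine signalling that growth hormone induces and that dampens its receptor's signal. Its level was 8.06, 9.91 and 9.11 in fed WT mice and 10.20, 10.14 and 10.32 in starved WT mice. In KO mice it was 10.94, 9.16 and 8.04 in the fed and 9.91, 9.93 and 9.81 in the starved animals. The fed mice covered a range that reached above and below the starved mice in the KO group, while in the WT group the starved mice lay above all 3 fed ones. The starvation difference was 1.19 (SE 0.60, adjusted p = 0.45) in WT and 0.51 (SE 0.60, adjusted p = 0.926) in KO mice, and neither passed. The KO value turned to -0.17 without fed mouse F8 and -0.70 with array weights, and was 1.29 without fed mouse F5. The averaged Socs2 difference of 0.85 (SE 0.42, adjusted p = 0.335) became 1.41 within wide arrays (adjusted p = 0.00124), where 1 fed mouse per genotype remains and the spread is that of the starved mice, and 0.61 within narrow arrays (adjusted p = 0.727).

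What set Socs2 apart in description was its spread among fed mice relative to that among starved mice. The SD pooled over genotypes was 1.23 among fed and 0.0793 among starved mice, a ratio of 15.5, which was the highest of the 20719 genes, whose median ratio was 1.06. An SD among fed mice at least as high was found in 0.0627% of genes. An SD among starved mice at least as high was found in 92.0% of genes, so the ratio also rests on a small spread among starved mice. Igfbp1 was wide among fed mice too, with an SD of 0.99 that 0.179% of genes reached, beside 0.60 among starved mice. The table carried a second line for Socs2, with a lower mean level of 7.75 against 9.63. That other line stood at 7.04, 7.79 and 7.75 in fed WT, 7.93, 8.06 and 8.22 in starved WT, 8.40, 7.18 and 7.32 in fed KO and 7.74, 7.91 and 7.69 in starved KO mice. The same fed mice were high and low in both lines, apart from the order of the lowest pair of fed KO mice, and the 2 lines correlated at r = 0.90 over the 12 arrays. The ratio of SDs in the other line was 4.27, rank 177 of all genes. Both lines carry the same transcript accession. RefSeq places Socs2 on chromosome 10, and among the 20 nearest located lines of the table, 0 around the line used and 20 around the other line belong to genes of chromosome 10, so it is not settled which sequence the brighter line measures.

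**Figure D2:**
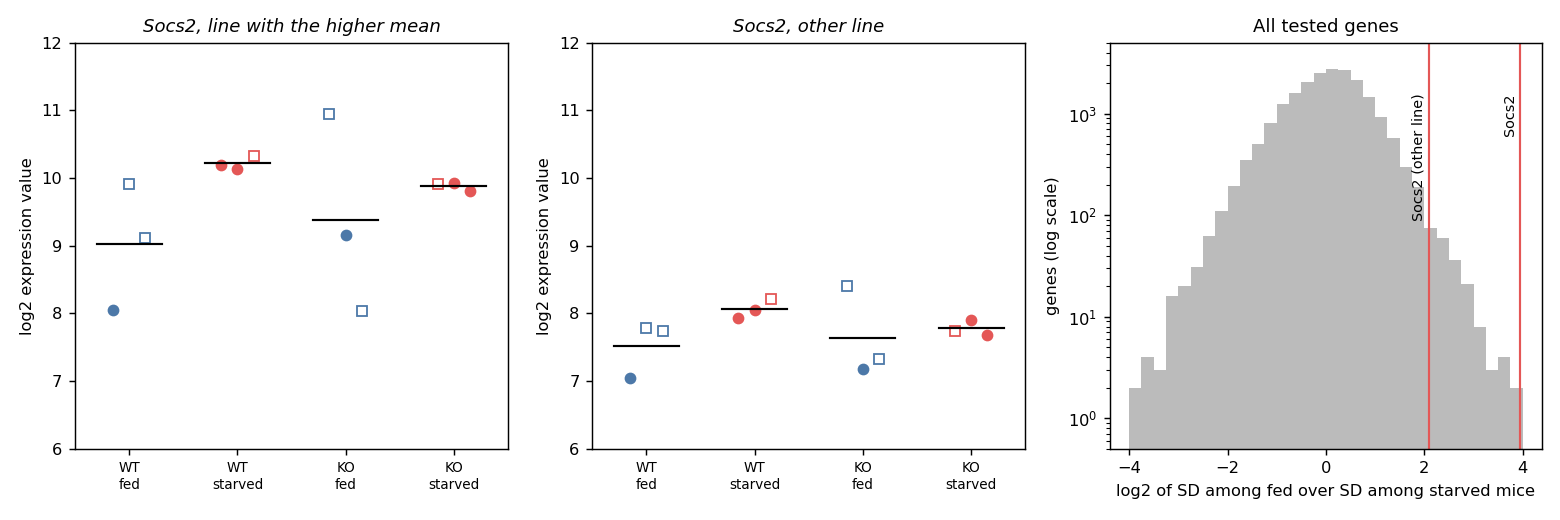
Socs2 in each mouse in the line used and in the other line of the table (log2 expression values; filled circles wide arrays, open squares narrow arrays, line the mean of 3 mice), and a histogram over all tested genes of the log2 ratio of the SD among fed to the SD among starved mice, with gene number on a log axis. Vertical lines mark the ratio of 15.5 of the line used, at the right edge of the distribution, and of 4.27 for the other line.

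Igf1, the hormone that mediates much of the growth-promoting action of growth hormone, had levels of 12.87, 12.48 and 12.75 in fed and 12.66, 12.85 and 12.80 in starved WT mice. In KO mice its levels were 12.67, 12.70 and 12.59 in the fed and 12.64, 12.72 and 12.71 in the starved animals. Fed and starved mice overlapped in both genotypes. The starvation difference was 0.07 (95% confidence interval -0.18 to 0.31, adjusted p = 0.845) in WT and 0.03 (-0.21 to 0.28, adjusted p = 0.977) in KO mice. Averaged, the difference was 0.05 with an interval from -0.12 to 0.22 (adjusted p = 0.807), so a change of the size measured for Ghr lay outside the interval. The sign of the averaged and WT values turned within wide arrays (-0.05 and -0.11) and without WT fed mouse F2 (-0.003 and -0.04).

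Igfals and Igfbp3 encode the partners of IGF-I in the large circulating complex. Igfals, the acid-labile subunit made by hepatocytes, stood at 9.96, 9.02 and 9.39 in fed and 8.95, 8.72 and 8.77 in starved WT mice. In KO mice it stood at 9.37, 9.56 and 8.97 in the fed and 8.83, 9.42 and 9.55 in the starved animals. Groups were separate in WT and overlapped in KO mice. The difference was -0.65 (SE 0.25, adjusted p = 0.294) in WT and -0.03 (adjusted p = 0.992) in KO mice. The 2 differences were not told apart by the interaction, which was 0.61 (95% confidence interval -0.16 to 1.38, adjusted p = 1). With the array spread as a block, the averaged Igfals difference moved from -0.34 (adjusted p = 0.353) to -0.50 (adjusted p = 0.0176), and the WT difference to -0.80 (adjusted p = 0.0134). The averaged Igfals difference was -0.60 (adjusted p = 0.0265) within wide and -0.39 (adjusted p = 0.297) within narrow arrays, and in WT mice -1.13 and -0.44. The KO difference, near 0, changed sign without fed mouse F6 (0.09) or starved mouse S5 (0.18).

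Igfbp3, the main carrier of IGF-I in blood, which in rat liver is made mostly by non-parenchymal cells, stood at 8.45, 8.50 and 8.88 in fed and 8.32, 9.44 and 8.73 in starved WT mice. In KO mice the fed animals were at 8.40, 8.41 and 8.50 and the starved animals, all higher, at 9.07, 8.92 and 8.65. Its difference was 0.22 (adjusted p = 0.751) in WT and 0.44 (adjusted p = 0.655) in KO mice. The WT value was -0.09 without starved mouse S4 and 0.47 without starved mouse S3, so its direction rests on S4.

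Igfbp1 encodes a binding protein that hepatocytes secrete acutely when insulin is low. In WT mice its level was 7.53, 6.94 and 9.46 in the fed and 10.47, 12.04 and 10.82 in the starved animals. In KO mice it was 7.37, 8.24 and 7.53 in the fed and 11.10, 10.76 and 10.72 in the starved animals. Every starved mouse was above every fed mouse, including fed WT mouse F4, which at 9.46 was the highest of the fed mice. Igfbp1 rose by 3.14 (SE 0.57, 95% confidence interval 1.89 to 4.38, adjusted p = 0.0241) in WT and by 3.15 (SE 0.57, interval 1.91 to 4.39, adjusted p = 0.0249) in KO mice. Averaged, the difference was 3.14 (SE 0.40, adjusted p = 0.00129), and it was 3.12, 3.11 and 3.14 with the spread as a block, in wide and in narrow arrays, all called.

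The Igfbp1 calls within a genotype were less firm than the average. The WT call was lost without fed mouse F1 (adjusted p = 0.0527), fed mouse F2 (0.0795) or starved mouse S4 (0.108), and the KO call without fed mouse F5 (0.142) or F8 (0.0875) or any of the starved mice S5 (0.0951), S6 (0.1) and S7 (0.0961). The WT call was lost also when only the 2 WT groups were fitted (0.173). Within wide and narrow arrays the Igfbp1 difference was 3.73 and 2.62 in WT and 2.49 and 3.66 in KO mice.

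Igfbp2 encodes another binding protein of small IGF complexes. In WT mice its level was 10.40, 10.43 and 10.88 in the fed and 11.87, 12.12 and 11.25 in the starved animals. In KO mice it was 10.33, 9.73 and 10.61 in the fed and 11.84, 11.83 and 11.90 in the starved animals. Again all 6 starved mice exceeded all 6 fed mice. Igfbp2 rose by 1.18 (SE 0.25, 95% confidence interval 0.63 to 1.72, adjusted p = 0.0439) in WT and by 1.64 (SE 0.25, interval 1.09 to 2.18, adjusted p = 0.0115) in KO mice, and by 1.41 (SE 0.18, adjusted p = 0.00121) averaged. Within wide arrays the averaged difference was 1.87 and within narrow arrays 0.99 (adjusted p = 0.00108 and 0.0202).

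The WT call of Igfbp2 stood close to the threshold, with adjusted p between 0.0658 and 0.207 without any of 9 mice: all 3 fed WT mice, starved WT mice S3 and S4, fed KO mouse F5 and the 3 starved KO mice. It was lost also when only the 2 WT groups were fitted (0.17), with all lines tested (0.0542) and with trended and robust variance (0.0555), and within wide and narrow arrays the WT difference was 1.60 and 0.60. The KO call was lost without fed mouse F5 (0.0575), starved mouse S6 (0.0585) or starved mouse S7 (0.0532).

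**Figure D3:**
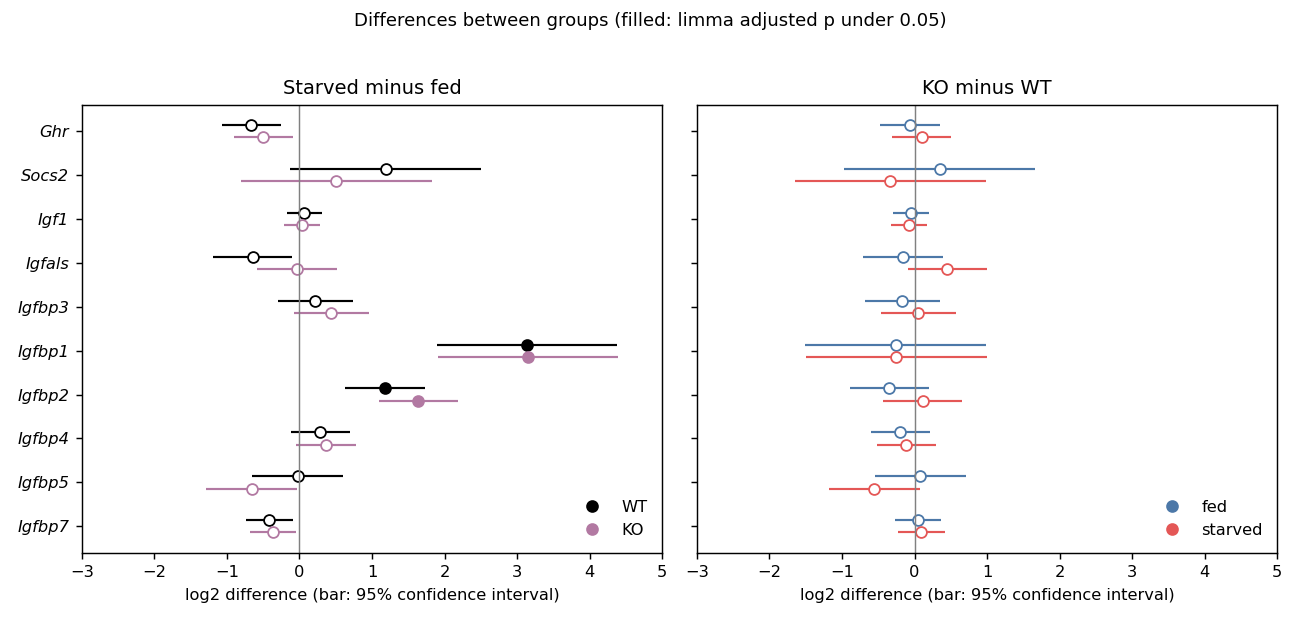
Differences between groups for the 10 genes on the log2 scale with 95% confidence intervals from limma, starved minus fed in WT and KO mice in the left panel and KO minus WT in fed and starved mice in the right panel. Filled points have an adjusted p under 0.05; these are Igfbp1 and Igfbp2 in the left panel, and no point in the right panel is filled.

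Neither Igfbp4 nor Igfbp7 passed in a starvation contrast of the main analysis, though both did with array weights, and Igfbp7 also with the array spread as a block and, in the average, with cyclic loess scaling, with the median filter, within wide arrays and without WT fed mouse F2. Igfbp4, a binding protein that inhibits IGF action until the protease PAPP-A cleaves it, was at 12.48, 11.91 and 12.12 in fed and 12.47, 12.54 and 12.35 in starved WT mice. In KO mice it was at 11.93, 12.31 and 11.68 in the fed and 12.09, 12.41 and 12.52 in the starved animals. Groups overlapped in both genotypes, with differences of 0.29 (adjusted p = 0.575) in WT and 0.36 (adjusted p = 0.624) in KO mice. The averaged Igfbp4 difference of 0.325 (adjusted p = 0.218) became 0.20 with the array spread as a block, 0.09 within wide and 0.31 within narrow arrays.

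Igfbp7, a relative with low affinity for IGFs that vascular cells secrete, was at 11.90, 11.40 and 11.53 in fed and 11.25, 11.14 and 11.19 in starved WT mice. In KO mice the fed animals were at 11.58, 11.89 and 11.51 and the starved animals at 11.13, 11.41 and 11.33. All 6 starved mice reached at most 11.41, and the lowest fed mouse was at 11.40. The Igfbp7 difference was -0.41 (SE 0.15, adjusted p = 0.244) in WT, -0.37 (adjusted p = 0.43) in KO mice and -0.39 (SE 0.10, adjusted p = 0.0556) averaged. With the array spread as a block the averaged value was -0.48 (adjusted p = 0.00179), with -0.50 in WT (adjusted p = 0.0165) and -0.45 in KO mice (adjusted p = 0.0323). It was within wide arrays -0.61 (adjusted p = 0.0154) and within narrow arrays -0.34 (adjusted p = 0.207).

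Igfbp5, a binding protein held in the extracellular matrix, had a mean array value of 6.27, which lies under the median of all genes, where a low signal cannot be told from no expression. It was at 7.19, 5.87 and 6.13 in fed and 6.18, 6.41 and 6.54 in starved WT mice, and at 6.19, 6.84 and 6.40 in fed and 5.76, 5.93 and 5.77 in starved KO mice. The highest values were those of WT mouse F1 and KO mouse F6, the only fed mice on wide arrays. The averaged Igfbp5 difference was -0.34 (adjusted p = 0.436), and it was -0.95 (adjusted p = 0.00801) within wide and 0.01 (adjusted p = 0.991) within narrow arrays, so its direction depends on the arrays compared. In WT mice the Igfbp5 difference was -0.90 within wide and 0.54 within narrow arrays, and without WT fed mouse F1 it was 0.37 in place of -0.02. The KO difference was -0.99 and -0.53 within wide and narrow arrays, beside -0.66 over all arrays (SE 0.29, adjusted p = 0.493).

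**Figure D4:**
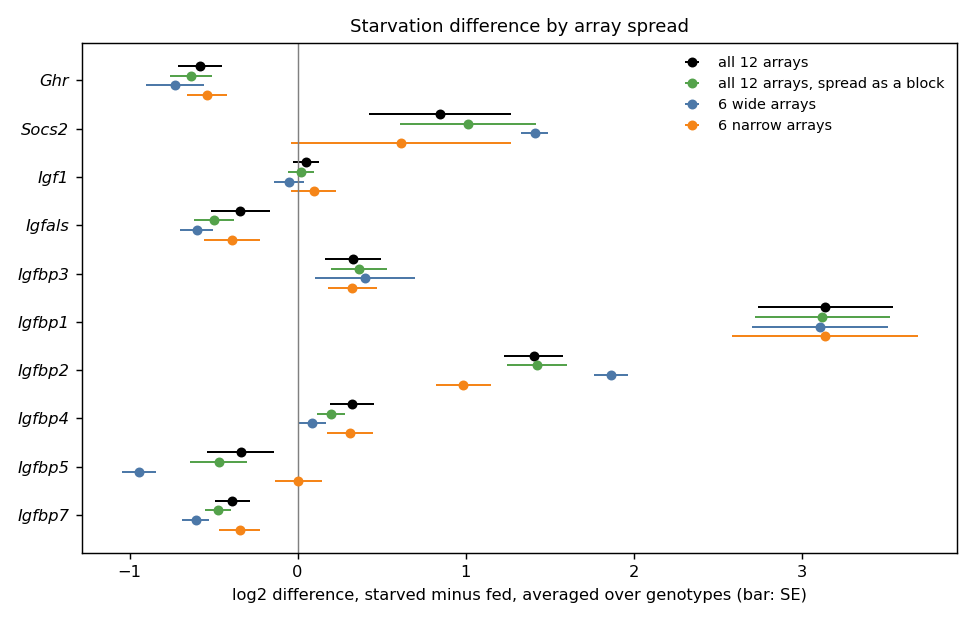
Starvation differences averaged over genotypes for the 10 genes (log2 scale, horizontal axis; bars are SE), from all 12 arrays, with the array spread as a block, and within the 6 wide or the 6 narrow arrays. The Igfbp1 values sit on top of each other at 3.11 to 3.14, Igfbp2 ranges from 0.99 to 1.87, and Igfbp5 from -0.95 to 0.01; bars within wide arrays take their spread from starved mice only (1 fed mouse per genotype), and bars within narrow arrays from fed mice only (1 starved mouse per genotype).

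Counted by groups that do not overlap, 6 of the 10 genes separated starved from fed mice in WT animals (Igfbp1, Igfbp2 and Socs2 higher, Ghr, Igfals and Igfbp7 lower), beside 13.0% of all genes. In KO animals 6 separated as well (Igfbp1, Igfbp2 and Igfbp3 higher, Ghr, Igfbp5 and Igfbp7 lower), beside 16.5% of all genes. With 3 mice a group, such a separation is a description and not a call.

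Whether loss of Lamp2A in hepatocytes altered the axis was asked in fed and in starved mice. In fed mice the KO minus WT differences ran from -0.35 for Igfbp2 to 0.35 for Socs2, and in none of the 10 genes were the groups separate, beside 7.97% of all genes. In starved mice they ran from -0.55 for Igfbp5 to 0.45 for Igfals. Igfbp5 and Socs2 (-0.34) were lower in all 3 starved KO mice than in all 3 starved WT mice, 2 of 10 genes beside 9.81% of all genes. All 10 had an adjusted p of 1 in limma in each genotype contrast and in the interaction, where 0% of all genes were called. At an unadjusted p under 0.05 the count was 0 of the 10 in each, beside 2.91% of all genes in fed mice, 3.59% in starved mice, 4.65% in the average of both and 2.04% in the interaction. For Igfbp1 the fed difference was -0.26 (SE 0.57), but 0.72 within wide arrays, 0.48 without WT fed mouse F4 and -1.67 (adjusted p = 0.0331) with array weights, so its direction is not settled. Array weights also called Igfbp2 (-0.48, adjusted p = 0.0458), and no other alternative called a gene of the axis between fed WT and fed KO mice. The interaction was 0.01 for Igfbp1 (95% confidence interval -1.74 to 1.77), 0.46 for Igfbp2 (-0.31 to 1.23) and 0.16 for Ghr (-0.41 to 0.74). These intervals leave room for differences between genotypes in the response of Igfbp1 of over 1 on the log2 scale in either direction.

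The other genes of the pathway were read from 2 lists. Of 21 genes of growth hormone receptor signalling, all measured, 0 were called in either genotype, beside 1.41% of all genes in WT and 1.02% in KO mice. In the average, where 5.16% of all genes were called, 1 of the 21 was called. This was Cux2, a transcription factor that growth hormone patterns regulate in mouse liver. Its level was 6.56, 6.71 and 6.50 in fed WT, 6.81, 7.13 and 7.10 in starved WT, 6.54, 6.53 and 6.69 in fed KO and 7.04, 7.12 and 7.04 in starved KO mice. Every starved mouse was above every fed mouse. The array medians over all genes ran from 6.63 to 6.75. Cux2 in fed mice lay near them, where a low signal cannot be told from no expression. Cux2 rose by 0.45 averaged (SE 0.08, adjusted p = 0.00775), but its difference did not pass within WT (0.43, adjusted p = 0.0985) or KO mice (0.47, adjusted p = 0.0815), nor within wide (adjusted p = 0.0678) or narrow arrays (0.121). The list's median difference was 0.02 in WT and -0.09 in KO mice, near those of all genes.

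By size and without a call, the leading values of that list in WT mice were Bcl6, a repressor that opposes STAT5 (0.85, SE 0.69), Stat3 (0.79, SE 0.38) and the feedback inhibitor Cish (-0.60, SE 0.31). In KO mice, beside Cux2, they were the adaptor Grb10 (-0.56, SE 0.17) and Socs3, another suppressor of cytokine signalling (-0.52, SE 0.16). The group means of Grb10, between 6.05 and 6.61, lay under the array medians, where the same limit holds. Of 20 genes for IGF ligands, IGF and insulin receptors and their modifiers, 0 passed in any contrast. The insulin receptor gene Insr led this list in both genotypes, with differences of 1.04 (SE 0.54) in WT and 0.85 (SE 0.54) in KO mice. It was followed in WT mice by Grb14, an adaptor that inhibits the insulin receptor (0.46, SE 0.13), and Irs2, an insulin receptor substrate (0.45, SE 0.27), and in KO mice by the IGF-II clearance receptor gene Igf2r (0.55, SE 0.53) and Irs2 (0.40, SE 0.27). Insr and Igf2r also differed with array spread. Insr was at 10.45 and 10.35 in fed mice F1 and F6, both on wide arrays. Starved mice on wide arrays were at 10.69, 10.59, 10.32 and 10.40. On narrow arrays Insr was at 8.67, 8.69, 8.87 and 8.60 in fed and 9.65 and 9.64 in starved mice. Igf2r was between 8.58 and 8.81 on wide and between 7.17 and 7.62 on narrow arrays.

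Markers of other liver cells were read beside the binding proteins that such cells can make. The mean level of 12 hepatic stellate cell markers ranged from 8.39 to 8.56 in fed and 8.13 to 8.40 in starved WT mice, and from 8.28 to 8.75 in fed and 8.25 to 8.43 in starved KO mice. Summed on the linear scale and taken as log2, the stellate markers ranged from 12.97 to 13.05 in fed WT, 12.77 to 13.10 in starved WT, 12.93 to 13.25 in fed KO and 12.95 to 13.14 in starved KO mice. In the averaged contrast, where 5.16% of all genes were called, 10 of the 12 were lower and 1, Pdgfrb, was called lower. In limma the Pdgfrb difference was -0.08 (adjusted p = 0.786) in WT and -0.53 (adjusted p = 0.0357) in KO mice, so the averaged fall came mostly from KO mice. The mean of 12 sinusoidal endothelial markers was 9.20 in fed and 9.03 in starved WT mice and 9.17 and 9.09 in KO mice. In the average, 7 of these 12 were lower and 5 higher, and 1, Fcgr2b, was called lower. Their summed level ranged from 13.10 to 13.52, 12.96 to 13.11, 13.07 to 13.67 and 12.85 to 13.20 in fed WT, starved WT, fed KO and starved KO mice. Of 12 Kupffer cell markers 0 were called, and 10 were lower and 2 higher in the average. Their group means were 9.21, 9.01, 9.04 and 9.00 in fed WT, starved WT, fed KO and starved KO mice. The lowest markers of the 3 lists by their means over the 12 arrays were Des at 6.92, Pecam1 at 7.74 and Marco at 6.17. Their part in the values of Igfbp3, Igfbp5 and Igfbp7 was not tested. Of 8 cholangiocyte markers 0 were called (group means 6.39, 6.33, 6.49 and 6.20), and 7 were lower and 1 higher in the average. Of 7 measured red blood cell markers 2, Alas2 and Car1, fell in the average (9.09, 8.49, 9.03 and 9.01).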

How the data were processed

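RNA from 1 liver sample per mouse was converted to labelled DNA and hybridised to Affymetrix arrays, 3 mice in each of 4 groups. The authors deposited log2 values after RMA, for which the submitters' processing notes name RMA, oligo and limma without versions or roles. The 28944 lines of the annotated table held the same values as the deposited series matrix in all 347328 cells. Of these lines, 5132 had no symbol, and 20719 genes remained after keeping the line with the highest mean for the 1683 symbols with several lines. Array values carry no counts. Precision is set by how few arrays there are, and the 95% confidence intervals typically (median) extended 0.329 to each side.

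Group means were fitted to all 12 arrays with limma 3.58.1 in R 4.3.3 (8 residual degrees of freedom, 3.38 prior degrees of freedom), and 7 contrasts were tested with Benjamini-Hochberg adjustment over all genes at 0.05. The code was tested on simulated data. The array spread was split at its largest gap. Alternatives were other lines per symbol, filters, scalings, array weights, trended and robust variance, pairs of groups, array spread, a replicate block and leaving out each mouse. The 10 genes and the lists were chosen with earlier results of these data known. All 10 are named; of the other lists, called genes and, by size, the leading 3 per contrast. Figures were drawn with matplotlib 3.10.9. Promoters were searched in RefSeq sequences of GRCm38.p6, which may not be the build of the array's annotation.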

Additional observations from a re-analysis of the deposited data

How the results depend on the processing

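In the average over genotypes, Igfbp1 (2.71 to 3.51) and Igfbp2 (0.99 to 1.87) were called in 24 of 24 alternatives and Ghr (-0.73 to -0.48) in 19 of 24. No value called in the main analysis changed direction. The count of the 10 genes called with starvation in WT mice, 2 as reported, was 1 when all lines were tested or with trended and robust variance, 0 with only the 2 groups fitted, 6 with array weights, 5 with the array spread as a block, 6 within wide and 0 within narrow arrays. In KO mice, also 2 as reported, it was 5 with array weights, 3 with the spread block (Igfbp7 added), 2 within wide arrays (Igfbp2 and Igfbp5, without Igfbp1) and 1 within narrow arrays. In the average, 3 as reported, it was 5 with array weights, 5 with the spread block, 4 with cyclic loess or the median filter, 6 within wide and 2 within narrow arrays. Counts within wide or narrow arrays rest on a lone fed or starved mouse per genotype. Leaving out 1 mouse gave 0 to 2 in WT, 0 to 2 in KO mice and 2 to 4 in the average. In fed mice, array weights called 2 genes between genotypes, Igfbp1 (-1.67, adjusted p = 0.0331) and Igfbp2 (-0.48, adjusted p = 0.0458), where 0 were called otherwise; the cause was not tested. The weights also raised the calls over all genes, to 5600 from 292 in WT, 7639 from 212 in KO and 9499 from 1070 in the average, while fitting only the 2 groups gave 11 in WT and 357 in KO mice. The numbers in the sample names are shared by 1 WT and 2 KO pairs, whose deviations correlated at -0.172, 0.454 and 0.532. The KO pairs were on arrays of the same spread, F5 and S5 narrow and F6 and S6 wide. In the WT pair F4 was narrow and S4 wide. Whether the mice of a pair share more than a number was not tested. The starved WT arrays titled S3 and 3 also share one, are treated as separate mice as labelled, and without the latter 659 in place of 292 genes were called in WT mice, with the same 2 of the axis. With the replicate block the counts were 2, 2 and 3 with starvation and no call changed. A filter at the median signal removed Igfbp5, and the other Socs2 line, chosen after seeing the data, gave 0.54 in WT (adjusted p = 0.477) and 0.15 in KO mice (adjusted p = 0.96).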

Other observations

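As a description of patterns over the 12 arrays, with no test, the genes most like Igfbp1 by Pearson correlation were Sult1a1 (r = 0.97), Mknk2 (0.96) and Fam134b (0.95). Those most like Ghr were S1pr1, Stard4 and Sc5d (each r = 0.98), and those most like Igf1 were Sfxn1 (0.94), Mir713 (0.91) and Pgk1 (0.91). The arrays share the 4 groups and the differences in spread, which enter every such correlation.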
